A study of Mus musculus with 8 samples.

Results

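The inferior region of the control retina was compared with the superior region in adult C57BL/6J mice, a pigmented laboratory strain, kept in room air. The comparison rests on 4 of the 8 arrays of the study, 2 labelled control inferior and 2 labelled control superior, and it was described across all 28853 probe sets of an Affymetrix Mouse Gene 1.0 ST array, whose probes are spread over the whole transcript. The other 4 arrays hold the inferior and the superior retina of mice kept in 75% oxygen for 14 days from an age of 83 to 90 days. All mice were raised in dim cyclic light of 5 lux for 12 hours a day, controls were taken at the age that exposed mice had reached, and each sample pooled the retinas of 2 animals, 1 male and 1 female. Whether an inferior and a superior sample numbered alike come from 1 pair of animals is not stated in the labels, and the p-values below measure only the spread between these samples. Values are log2 signals as the authors deposited them, and a log2 difference is inferior minus superior, so that 1 is a doubling of signal in the inferior retina and a negative value is higher in the superior retina.

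1 control array stood apart before any comparison. Over 23 measured lens genes, chiefly crystallins, the structural proteins of the lens, the median deviation of a gene from its own 8-array mean was 1.75 on control inferior replicate 2, against -0.57 on control inferior replicate 1, -0.43 on control superior replicate 1 and -0.01 on control superior replicate 2 (log2). *Cryaa*, the gene of alpha-A crystallin, read 6.77 and 13.83 on the control inferior arrays and 6.71 and 10.15 on the control superior arrays, so that both replicate 2 arrays were high. Genes of pigment cells moved with it in part on the control arrays: the median over 18 genes of the retinal pigment epithelium and of melanin synthesis was -0.35 and 0.30 on the inferior arrays and -0.78 and -0.14 on the superior arrays. On the exposed arrays the pigment median was 0.02 and 0.17 in the inferior and 0.32 and 0.41 in the superior retina. The lens median there lay between -0.51 and -0.07. Control inferior replicate 1 had no such excess of lens signal, so the leading differences, though not every smaller one, are also given without control inferior replicate 2. The arrays were otherwise alike in scale, with medians of 6.98 and 7.03 in the inferior and 7.01 and 6.99 in the superior retina. The retinal label was borne out by most of its marker lists. Those of rods, cones, bipolar, ganglion and Muller cells had median log2 levels of 12.52, 10.43, 9.71, 9.17 and 10.84, against 7.01 over all probe sets. The lists of amacrine and horizontal cells had 8.26 and 7.01.

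**Figure D1:**
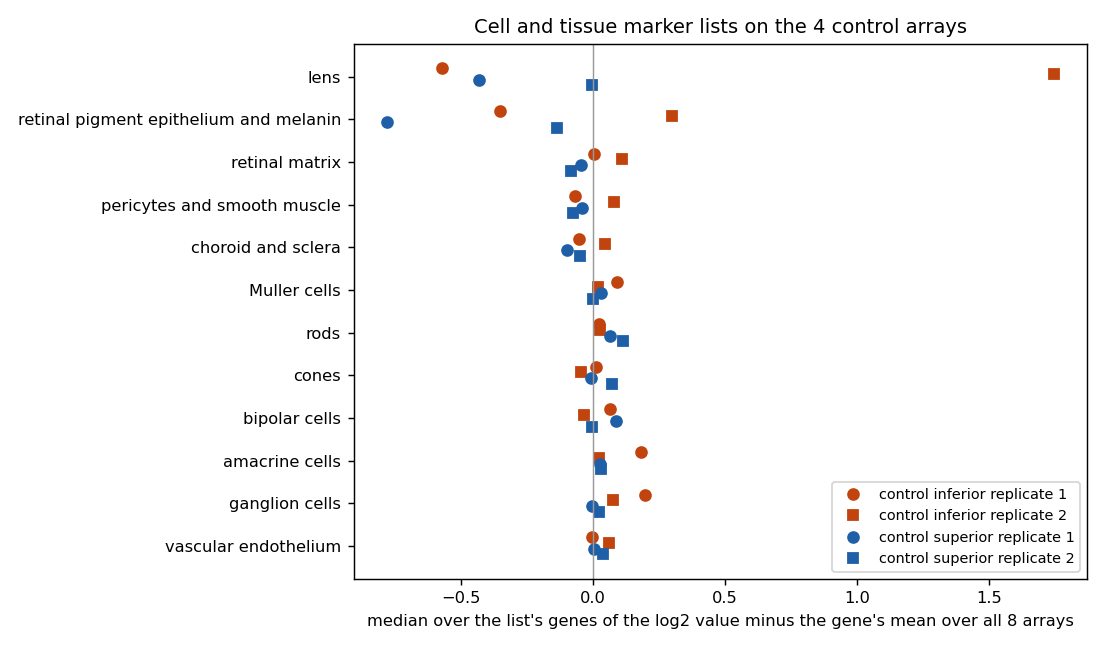
Marker lists of retinal cells and of neighbouring tissues on the 4 control arrays: each point is the median, over the genes of a list, of the log2 value minus that gene's 8-array mean (red control inferior, blue control superior, circle replicate 1, square replicate 2). The lens list lies at 1.75 on control inferior replicate 2 and between -0.57 and -0.01 on the other 3 control arrays, while the 5 neuronal lists lie between -0.05 and 0.20.

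The vertebrate retina is patterned from its dorsal (superior) to its ventral (inferior) margin while the optic cup forms. Bone morphogenetic proteins on the dorsal side favour T-box transcription factors, ventral factors of the Vax family oppose them, and the opposing territories then express different ephrins, Eph receptors and enzymes of retinoic acid synthesis. In the adult mouse the axis is plain in the cones, because most cones of the superior retina are rich in the middle wavelength opsin and those of the inferior retina in the short wavelength opsin, with many cones that hold both.

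Differences between the control regions were small. Of the 28853 probe sets, 91.6% differed by less than 0.25 on the log2 scale, 149 by more than 1.5-fold and 28 by more than 2-fold. By limma, a linear model whose estimate of spread is shared among probe sets, 0 probe sets (0%) had an adjusted p under 0.05, while 1529 (5.3%) had an unadjusted p under 0.05, 717 with a positive difference (2.49%) and 812 with a negative one (2.81%). With control inferior replicate 2 left out, 0 had an adjusted p under 0.05, while 990 with a positive and 1545 with a negative difference had an unadjusted p under 0.05. In the hyperoxia-exposed retina the same contrast had 40 probe sets (0.139%) at an adjusted p under 0.05 and 2452 (8.5%) at an unadjusted p under 0.05. Both limits together, an unadjusted p under 0.05 and a fold over 1.5, took 93 probe sets (0.322%) in the control retina, of which 55 (0.191%) were higher and 38 (0.132%) lower in the inferior region. They held 59 named genes (0.296% of 19938), 42 higher (0.211%) and 17 lower (0.0853%). Over all named genes, 1057 (5.3%) had an unadjusted p under 0.05, 525 higher (2.63%) and 532 lower (2.67%). Counts of list members below in the control retina are to be read beside these shares. The 95% intervals below are for single genes and are not adjusted for the number of genes tested, and in whole tissue fewer cells of a type cannot be told apart from less RNA in each cell.

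The smallest p of all probe sets belonged to *Tbx5*, a T-box transcription factor of the dorsal eye. Its log2 values were 5.33 and 5.34 in the inferior and 6.48 and 6.32 in the superior control retina, a difference of -1.06 (standard error 0.10), 2.09-fold higher in the superior region (adjusted p = 0.0731). *Nr2f2*, a nuclear receptor also called COUP-TFII that is graded toward the dorsal retina, read 7.81 and 7.93 in the inferior and 8.56 and 8.47 in the superior retina, a difference of -0.65 (standard error 0.10, adjusted p = 0.814). Inferior and superior arrays did not overlap for either gene, which held for 34.2% of all probe sets (17.5% with the inferior arrays above, 16.7% below). Both differences were also present on the 4 arrays of the exposed retina, at -1.32 for *Tbx5* (adjusted p = 0.00649) and -0.90 for *Nr2f2* (adjusted p = 0.0233), and without control inferior replicate 2 they were -1.07 and -0.71.

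The other T-box genes of the dorsal eye had small differences. *Tbx2* differed by 0.04 (95% interval -0.22 to 0.31, and 0.13 without control inferior replicate 2) and *Tbx3* by -0.11 (95% interval -0.33 to 0.11), with overlapping arrays in both. *Bmp4*, the dorsal ligand upstream of T-box genes in the embryonic eye, differed by 0.15 and the related ligand gene *Gdf6* by 0.04. *Aldh1a1*, the retinaldehyde dehydrogenase that makes retinoic acid in the dorsal retina, read 9.79 and 11.03 in the inferior and 10.77 and 10.60 in the superior retina. The inferior arrays thus lay on both sides of the superior ones, and the difference was -0.27 (standard error 0.32). On the exposed arrays it was -1.05 (adjusted p = 0.437), and in the control retina without control inferior replicate 2, the array with high lens transcripts, it was -0.89 (adjusted p = 0.354). Of the 9 genes of superior patterning measured, 3 were lower in the inferior retina at an unadjusted p under 0.05 and 0 higher, against the 2.67% and 2.63% of named genes, with a median difference of -0.11 against 0.002 over all probe sets. In the exposed retina 5 of the 9 were lower at that limit, which 4.25% of all probe sets met in that direction and 4.25% in the other, and all 9 had the sign they had in the control retina.

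**Figure D2:**
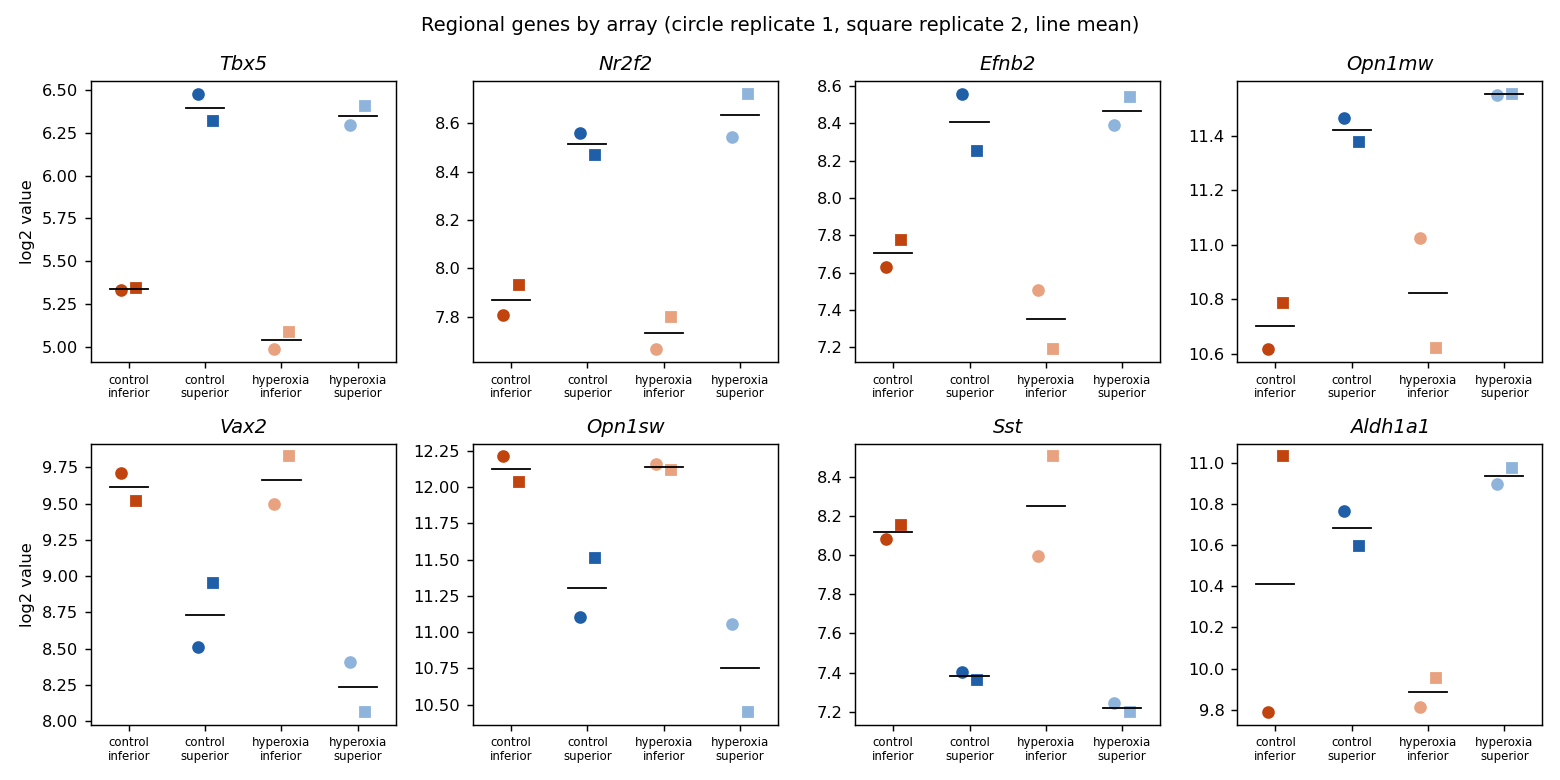
Log2 values of 8 genes on all 8 arrays (circle replicate 1, square replicate 2, line group mean), with control inferior and control superior at the left of each panel and hyperoxia inferior and hyperoxia superior at the right. *Tbx5*, *Nr2f2*, *Efnb2* and *Opn1mw* are lower and *Vax2*, *Opn1sw* and *Sst* higher in the inferior member of both pairs, while *Aldh1a1* overlaps between the control groups, where control inferior replicate 2 reads 11.03.

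*Vax2*, the homeobox gene that specifies the ventral retina, was the largest difference of the inferior patterning list. It read 9.71 and 9.52 in the inferior and 8.51 and 8.95 in the superior control retina, a difference of 0.88 (standard error 0.18, adjusted p = 0.848), and 0.98 without control inferior replicate 2. On the exposed arrays the difference was 1.43 (adjusted p = 0.0335), and the 2 differences were not told apart (difference of differences -0.55, 95% interval -1.13 to 0.04). Its relative *Vax1*, which acts mainly in the optic stalk, differed by -0.15, and by -0.33 without that array. *Nr2f1*, the ventral counterpart of *Nr2f2*, differed by 0.21 (95% interval -0.08 to 0.50) with no overlap between the arrays, and by 0.35 in the exposed retina (adjusted p = 0.54). *Aldh1a3*, the ventral retinaldehyde dehydrogenase of the embryo, differed by -0.13, and *Pax2*, a gene of the optic stalk, by -0.15. An unadjusted p under 0.05 was met by 2.63% of named genes in the higher and 2.67% in the lower direction. Of the 9 measured genes of inferior patterning 1 was higher at that limit and 0 lower, with a median of 0.12. These counts were 2 and 1 without control inferior replicate 2, with a median of 0.06. *Bmpr1b*, which encodes a receptor of bone morphogenetic proteins, was then at 0.34, and at 0.12 with all arrays.

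Among ephrins and their receptors, guidance molecules that map retinal axons along the dorsoventral axis, the dorsal ligand *Efnb2* stood out. Its values were 7.63 and 7.78 in the inferior and 8.56 and 8.25 in the superior retina, a difference of -0.70 (standard error 0.14, adjusted p = 0.848). In the exposed retina it was -1.12 (adjusted p = 0.0335), and without control inferior replicate 2 it was -0.77. The other dorsal ligand, *Efnb1*, differed by -0.07 (95% interval -0.32 to 0.18, and -0.18 without that array) in the control and by -0.34 (adjusted p = 0.473) in the exposed retina. *Ephb3*, a receptor enriched in the ventral retina, differed by 0.16 (95% interval -0.08 to 0.40) and by 0.34 (adjusted p = 0.444) in the exposed retina. Of 21 ephrin and Eph genes, 1 was lower and 0 were higher in the inferior control retina at an unadjusted p under 0.05. Among all named genes 2.67% were lower and 2.63% higher at that limit. The median difference of the 21 was 0.04 (0.12 without control inferior replicate 2).

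The opsins of the cones differed in opposite directions. *Opn1sw*, the short wavelength opsin, read 12.21 and 12.04 in the inferior and 11.10 and 11.51 in the superior control retina, a difference of 0.82 (standard error 0.20, adjusted p = 0.85). *Opn1mw*, the middle wavelength opsin, read 10.62 and 10.79 in the inferior and 11.46 and 11.38 in the superior retina, a difference of -0.72 (standard error 0.13, adjusted p = 0.83). The groups did not overlap for either opsin. In the exposed retina *Opn1sw* differed by 1.38 (adjusted p = 0.0603) and *Opn1mw* by -0.73 (adjusted p = 0.163). Leaving out control inferior replicate 2 gave 0.90 for *Opn1sw* and -0.80 for *Opn1mw*.

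Since both opsins and cone arrestin differed between the regions, the 250 bases before their annotated starts are shown from RefSeq (GRCm38.p6). Capitals mark 2 kinds of match found by a script on either strand, GATTA (read as TAATC on the other strand), a core bound by homeodomain factors of the Otx and Crx type, and the palindrome TAATTA, a core of other homeodomain factors. They occur in 19.8% and 4.84% of the 32851 promoters of this length.

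Opn1sw (chr6:29380514-29380763, minus strand): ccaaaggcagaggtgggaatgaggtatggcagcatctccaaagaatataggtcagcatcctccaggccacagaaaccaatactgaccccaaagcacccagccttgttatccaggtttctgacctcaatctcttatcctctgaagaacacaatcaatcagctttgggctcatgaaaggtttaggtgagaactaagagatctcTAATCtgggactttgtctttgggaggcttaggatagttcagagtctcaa

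Opn1mw (chrX:74127216-74127465, plus strand): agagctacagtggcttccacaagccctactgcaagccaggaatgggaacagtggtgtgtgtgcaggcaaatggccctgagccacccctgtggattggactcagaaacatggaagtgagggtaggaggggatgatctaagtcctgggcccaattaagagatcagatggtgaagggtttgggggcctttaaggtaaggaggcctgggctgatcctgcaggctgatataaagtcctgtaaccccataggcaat

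Arr3 (chrX:100605247-100605496, plus strand): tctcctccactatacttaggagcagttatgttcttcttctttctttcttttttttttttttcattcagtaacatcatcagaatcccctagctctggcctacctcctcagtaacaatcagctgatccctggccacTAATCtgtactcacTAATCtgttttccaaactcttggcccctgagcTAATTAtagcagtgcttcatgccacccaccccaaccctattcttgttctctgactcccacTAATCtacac

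The short wavelength opsin promoter holds 1 GATTA match, 49 bases before the start, the middle wavelength opsin promoter holds none of either kind, and the cone arrestin promoter holds 3 GATTA matches and 1 TAATTA match. The T-box half-site AGGTGT, read as ACACCT on the other strand and present in 11.8% of all promoters, is in none of the 3 windows. *Tbx5* and *Vax2* have no entry in the promoter table. A match of letters is a description of the sequence only.

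The other cone genes differed less. *Arr3*, cone arrestin, read 10.66 and 10.65 in the inferior and 10.98 and 11.00 in the superior retina, a difference of -0.33 (standard error 0.09), and -0.37 in the exposed retina (adjusted p = 0.323). *Ccdc136*, a coiled-coil gene whose locus lies next to *Opn1sw*, differed by 0.33 (standard error 0.10) and by 0.42 in the exposed retina. *Thrb*, the thyroid hormone receptor that cones need to make middle wavelength opsin, differed by -0.23 (95% interval -0.46 to 0.01). The transduction genes *Gnat2*, *Pde6c*, *Guca1a* and *Gngt2* differed by between -0.07 and 0.05. The genes of the cone channel subunits, *Cngb3* and *Cnga3*, differed by -0.20 (95% interval -0.47 to 0.06) and 0.09 (95% interval -0.16 to 0.34), and *Pde6h*, the inhibitory subunit of the cone phosphodiesterase, by -0.17 (95% interval -0.45 to 0.12). Of 17 cone genes, 2 were higher in the inferior retina and 2 lower at an unadjusted p under 0.05. Named genes met that limit at 2.63% and 2.67%, and the cone median was -0.01. *Gnb3*, the cone transducin beta subunit, was the cone gene whose region difference changed most between control and exposed retina. It was -0.01 (95% interval -0.21 to 0.18) in the control and 0.66 (adjusted p = 0.0335) in the exposed retina. The difference of differences was -0.68, with an adjusted p of 0.311, above the threshold of 0.05.

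**Figure D3:**
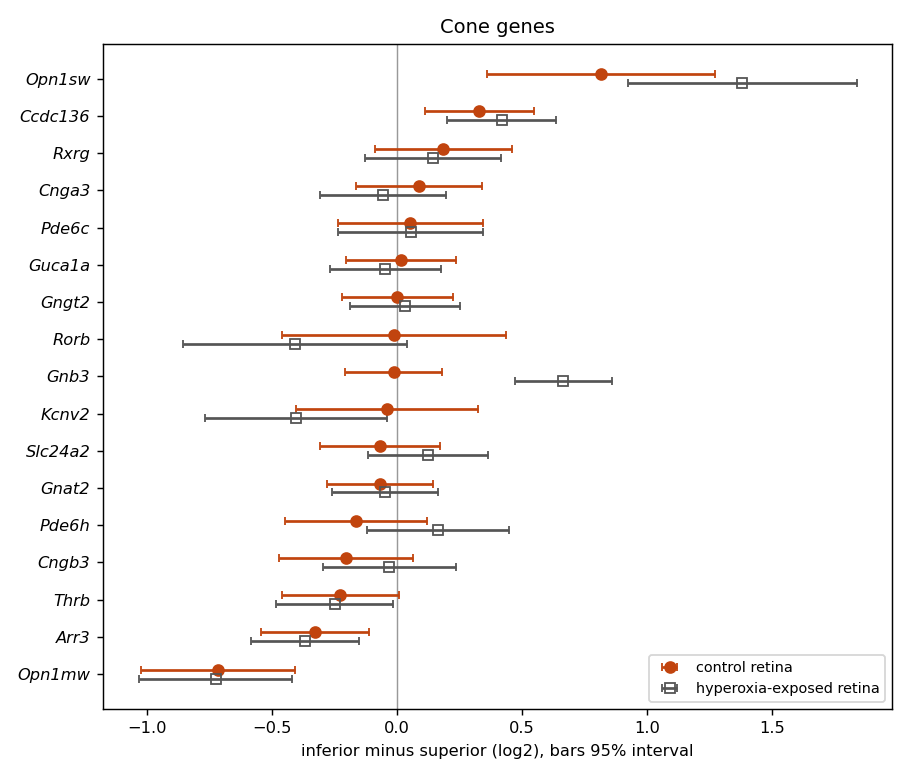
Inferior minus superior difference (log2, bars 95% interval) of 17 cone genes in the control retina (filled circles) and in the hyperoxia-exposed retina (open squares). *Opn1sw* (0.82) and *Opn1mw* (-0.72) lie at the 2 ends in the control retina, and most other genes lie near 0.

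Thyroid hormone and retinoic acid both steer opsin choice and eye patterning. *Slco1c1*, a thyroid hormone transporter, read 7.48 and 7.53 in the inferior and 7.90 and 7.77 in the superior retina, a difference of -0.33 (95% interval -0.57 to -0.09), and -0.35 in the exposed retina (adjusted p = 0.429). It was the 1 gene of 9 in the thyroid hormone list at an unadjusted p under 0.05, and the deiodinase genes *Dio2* and *Dio3*, which activate and inactivate the hormone, differed by -0.02 and 0.09. Of 19 genes of retinoic acid metabolism and signalling, *Rdh16* alone reached that limit, and 3 did so without control inferior replicate 2, *Rdh16*, *Aldh1a1* and the retinol-binding protein gene *Rbp4*, all lower. This retinol dehydrogenase gene, dim on all arrays, read 4.29 and 4.24 in the inferior and 5.12 and 4.91 in the superior control retina, a difference of -0.75 (95% interval -1.02 to -0.49), but 0.05 in the exposed retina. The degrading enzymes *Cyp26a1*, *Cyp26b1* and *Cyp26c1* differed by -0.09, 0.01 and -0.05. Of 27 genes of bone morphogenetic protein signalling, *Bmp2* was higher, at 0.49 (95% interval 0.15 to 0.82), and *Bmp5* lower, at -0.29 (95% interval -0.58 to -0.01), and without control inferior replicate 2 *Bmp2* was at 0.26 (adjusted p = 0.631) and *Bmp5* at -0.21 (adjusted p = 0.763).

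Neuropeptides of amacrine cells, the interneurons of the inner retina, gave the next group. *Sst*, somatostatin, read 8.08 and 8.15 in the inferior and 7.40 and 7.36 in the superior control retina, a difference of 0.74 (standard error 0.15, adjusted p = 0.848). The difference was 0.70 without control inferior replicate 2 and 1.03 in the exposed retina (adjusted p = 0.0603). *Tac2*, which encodes neurokinin B, differed by 0.30 (95% interval 0.07 to 0.54) and by 0.55 in the exposed retina (adjusted p = 0.179), and the gene of its receptor, *Tacr3*, by 0.27 and 0.26. *Tac1*, which encodes substance P, was the 1 peptide gene lower in the inferior retina at an unadjusted p under 0.05, at -0.24, and at -0.36 in the exposed retina. *Penk*, proenkephalin, differed by 0.40 (95% interval 0.10 to 0.71) in the control but by -0.30 (adjusted p = 0.594) in the exposed retina, and the difference between these was 0.70 (adjusted p = 0.673). A list of peptides, their receptors and the peptidase gene *Mme* held 28 genes, with a median of 0.04. Of these, 5 were higher and 1 lower at an unadjusted p under 0.05, against 2.63% and 2.67% of named genes. The 5 were *Sst*, *Tac2*, *Tacr3*, *Penk* and *Mme*, and the 5 somatostatin receptor genes differed by between -0.23 and 0.19.

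The promoter of somatostatin is shown for the cAMP response element TGACGTCA, in capitals, 48 bases before its start, which 1.55% of promoters hold (RefSeq, GRCm38.p6).

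Sst (chr16:23890845-23891094, minus strand): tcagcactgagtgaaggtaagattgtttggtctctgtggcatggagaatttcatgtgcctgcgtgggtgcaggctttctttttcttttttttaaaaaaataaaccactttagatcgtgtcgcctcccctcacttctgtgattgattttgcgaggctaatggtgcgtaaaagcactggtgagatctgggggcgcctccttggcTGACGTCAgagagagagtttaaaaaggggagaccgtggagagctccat

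*Mme*, the gene of neprilysin, a peptidase that cleaves somatostatin and tachykinins, had the second largest difference among the inferior-high genes with non-overlapping arrays at a p under 0.05 and a fold over 1.5. It read 5.95 and 6.90 in the inferior and 5.33 and 5.25 in the superior control retina, a difference of 1.14 (standard error 0.25, adjusted p = 0.85). Without control inferior replicate 2 it was 0.66, and in the exposed retina 0.12 (adjusted p = 0.937). Control inferior replicate 2 was thus the highest array, and replicate 1 was also above both superior arrays. With the lens median of each array as a covariate the control difference of *Mme* was 0.82. The cause of the high value on that array was not tested.

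Of the 59 named genes past both limits in the control retina, 33 (55.9%) had the same sign on the exposed arrays, against 53.5% of all named genes. At an unadjusted p under 0.05 there, 8 of the 59 had the same sign, against 934 of all 19938 named genes. That limit was met in either direction by 7.85% of named genes. Of the 8 genes, *Vax2*, *Opn1sw* and *Sst* were higher in the inferior retina, and *Tbx5*, *Alpk2*, *Nr2f2*, *Efnb2* and *Opn1mw* lower. They include both opsins and, of the dorsal and ventral eye genes described above, *Tbx5*, *Nr2f2*, *Efnb2* and *Vax2*. Others described there, such as *Tbx2*, *Tbx3*, *Bmp4* and *Aldh1a1*, were not among the 59. *Alpk2*, an alpha kinase gene, read 5.52 and 5.94 in the inferior and 6.77 and 6.66 in the superior control retina, a difference of -0.98 (adjusted p = 0.83), -1.19 without control inferior replicate 2 and -0.78 (adjusted p = 0.282) in the exposed retina. The 17 lower genes also held *Cyp2f2*, a cytochrome P450 gene, with the most negative difference of the 59. It read 5.17 and 5.33 in the inferior and 5.55 and 7.22 in the superior control retina, a difference of -1.14, and its higher superior array stood well apart from the other 3. With the same sign, 4 of the 59 had an adjusted p under 0.05 in the exposed retina, against 22 of all 19938 named genes. The 4 were *Tbx5*, *Nr2f2*, *Efnb2* and *Vax2*. The control and exposed contrasts share no array in their means. They do share the model's estimate of the spread, to which all 8 arrays contribute, so their p-values are not independent.

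**Figure D4:**
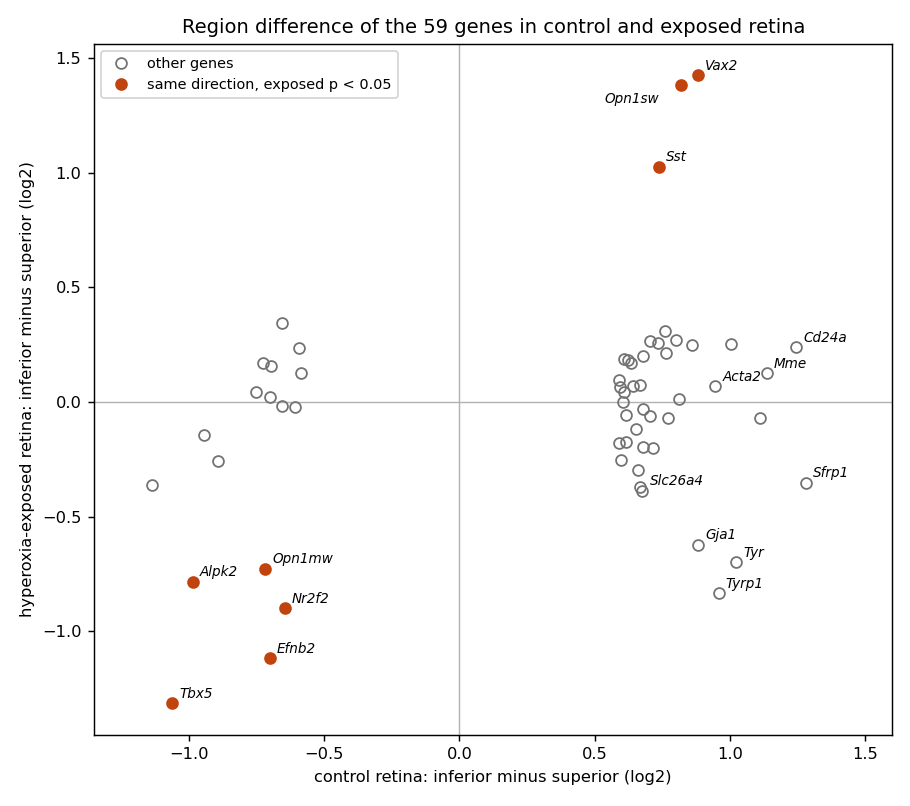
Region difference (inferior minus superior, log2) in the control retina, across, against that in the hyperoxia-exposed retina, up, for the 59 named genes at an unadjusted p under 0.05 and a fold over 1.5 in the control retina. The 8 filled points had the same direction at an unadjusted p under 0.05 in the exposed retina, and most open points lie near 0 on the vertical axis.

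Of the 59 genes, 26 had the opposite sign in the exposed retina. The difference of differences had an unadjusted p under 0.05 for 26 of the 59 genes, against 6.04% of all probe sets, although the 59 were chosen for a large control difference, which is one of its terms. *Edn2*, endothelin-2, a peptide of stressed photoreceptors, just missed the fold limit in the control retina. It read 6.91 and 6.95 in the inferior and 7.55 and 7.43 in the superior control retina, a difference of -0.56 (standard error 0.09, adjusted p = 0.814). In the exposed retina it read 9.76 and 9.72 in the inferior and 8.20 and 8.17 in the superior retina, a difference of 1.56. The difference of differences, -2.11 (95% interval -2.39 to -1.84, adjusted p = 0.00186), was the 1 of 28853 (0.00347%) at an adjusted p under 0.05.

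*Vcan*, the matrix proteoglycan versican, read 7.78 and 7.90 in the inferior and 7.13 and 7.20 in the superior control retina, a difference of 0.68 (adjusted p = 0.814), the second smallest p of all named genes. In the exposed retina it was -0.03, and the difference of differences was 0.71 (adjusted p = 0.367). *Slc26a4*, an anion exchanger known as pendrin, differed by 0.68 (95% interval 0.40 to 0.96) in the control and by -0.39 (adjusted p = 0.464) in the exposed retina, the 1 gene of the 59 with the opposite sign at that limit. *Zic1*, a zinc finger transcription factor, differed by 0.51 (95% interval 0.31 to 0.72) and by -0.01. Without control inferior replicate 2 the control differences of *Vcan*, *Slc26a4* and *Zic1* were 0.61, 0.62 and 0.47, close to the values with all arrays.

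The 10 genes with the smallest p held 2 microRNA genes. The probe set of *Mir20a* read 7.02 and 6.88 in the inferior and 6.32 and 6.43 in the superior control retina, a difference of 0.57 (adjusted p = 0.814), and -0.13 in the exposed retina. That of *Mir434* read 4.62 and 4.73 in the inferior and 4.02 and 4.10 in the superior retina, a difference of 0.62 (adjusted p = 0.83), and -0.17 in the exposed retina. *Mir20a* is one of a polycistron on chromosome 14 whose members are processed from 1 transcript, and its neighbours had smaller differences: *Mir17* differed by -0.01, *Mir18* by 0.18, *Mir19a* by 0.16, *Mir19b-1* by 0.30 and the host gene *Mir17hg* by 0.02. Without control inferior replicate 2 the differences of *Mir20a* and *Mir434* were 0.64 and 0.57. These probe sets cover the gene of the hairpin and do not part the mature arms. The mature 5p arms of *Mir20a* and *Mir17* and both arms of *Mir434* are shown from RefSeq (GRCm38.p6), with bases 2 to 8, the seed that pairs with targets, in capitals.

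mmu-miR-20a-5p: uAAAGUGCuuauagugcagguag
mmu-miR-17-5p: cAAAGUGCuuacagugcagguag
mmu-miR-434-5p: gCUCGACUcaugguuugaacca
mmu-miR-434-3p: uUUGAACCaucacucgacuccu

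The 5p arms of *Mir20a* and *Mir17* have the same seed, AAAGUGC, while the probe set of *Mir17* gave 5.49 and 5.39 in the inferior and 5.52 and 5.38 in the superior control retina.

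Most of the largest inferior-high values rested on control inferior replicate 2. It read above control inferior replicate 1 for 33 of the 42 higher genes. Without it, 13 of the 42 higher genes and 13 of the 17 lower genes kept a fold over 1.5. *Cd24a*, a surface glycoprotein of immature neurons and epithelia, read 7.81 and 9.57 in the inferior and 7.44 and 7.45 in the superior retina, a difference of 1.25 (adjusted p = 0.916), and 0.37 without that array. The difference of *Lix1* was 0.25 without it and 1.11 with it, and that of *Acta2*, smooth muscle actin, was 0.25 without it and 0.95 with it. In the other direction *Muc5ac*, a mucin gene, rested on 1 superior array, with 6.13 and 6.21 in the inferior and 6.28 and 7.84 in the superior retina (difference -0.89, 95% interval -1.78 to -0.01).

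**Figure D5:**
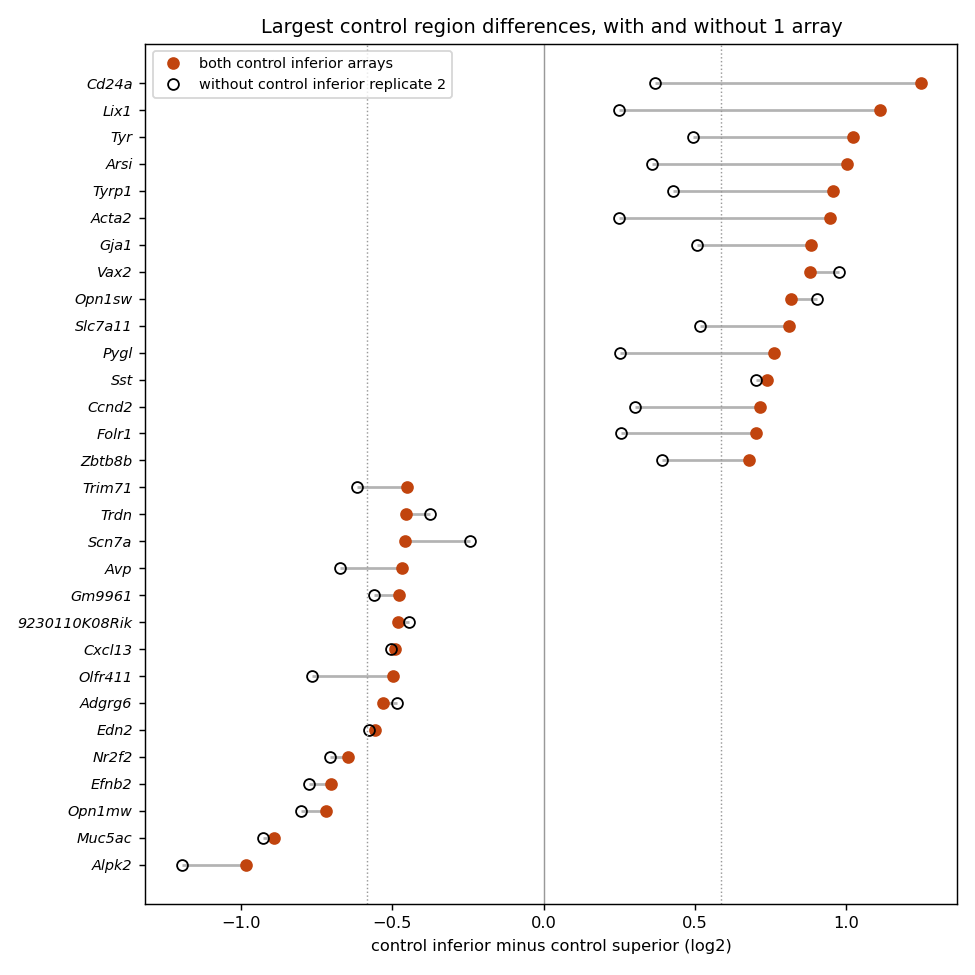
The 15 largest positive and the 15 largest negative control region differences (log2) among genes with non-overlapping arrays, an unadjusted p under 0.05 and a mean log2 value of at least 6, with both control inferior arrays (filled) and without control inferior replicate 2 (open); dotted lines mark a fold of 1.5. *Vax2*, *Opn1sw* and *Sst* are the 3 positive genes that stay beyond the line.

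Lens genes themselves had a median difference of 0.68 over 23 genes, -0.40 without control inferior replicate 2 and -0.02 in the exposed retina, and 0 of the 23 had an unadjusted p under 0.05. Pigment genes had a median of 0.56 over 18 genes, 0.17 without that array and -0.22 in the exposed retina. *Tyr*, tyrosinase, the first enzyme of melanin synthesis, read 5.76 and 6.82 in the inferior and 5.14 and 5.39 in the superior control retina (difference 1.02, 95% interval 0.31 to 1.73), and 0.49 without control inferior replicate 2. In the exposed retina it read 5.66 and 6.25 in the inferior and 6.71 and 6.59 in the superior retina, so its direction was opposite there (difference -0.70, adjusted p = 0.594). *Gja1*, a gap junction gene of the pigment epithelium and of astrocytes, differed by 0.88 in the control retina, by 0.51 without control inferior replicate 2 and by -0.62 in the exposed retina. With the lens median of each array as a covariate the control differences of *Tyr* and *Gja1* were 0.64 and 0.56. No covariate for carried-over pigment epithelium was fitted, and the causes of these values were not tested.

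Of 24 retinal matrix genes, 5 were higher and 0 lower at an unadjusted p under 0.05, against 2.63% and 2.67% of named genes. The 5 were *Vcan*, *Abi3bp*, *Col9a1*, *Sparc* and *Nid2*, and the median of the list was 0.10. That limit was met by 3 genes of the list without control inferior replicate 2, and the median was then 0.04. *Abi3bp*, which encodes a matrix protein, differed by 0.59 (95% interval 0.26 to 0.92), and by 0.36 without that array. Amino acid transport and the ATF4 response, which restores amino acid supply under stress, made a list of 22 genes. Of these, 5 were higher and 0 lower at an unadjusted p under 0.05, against 2.63% and 2.67% of named genes. The median difference of the 22 was 0.07. *Slc7a11*, the cystine transporter, read 7.75 and 8.34 in the inferior and 7.43 and 7.04 in the superior retina, a difference of 0.81 (95% interval 0.37 to 1.26), 0.52 without control inferior replicate 2 and 0.01 in the exposed retina. The serine synthesis genes *Psat1* and *Phgdh* differed by 0.34 (95% interval 0.13 to 0.54) and 0.59 (95% interval 0.05 to 1.14), and by 0.38 and 0.20 without that array.

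The markers of the main retinal cell classes had median differences from -0.05 to 0.12. Of 22 rod genes, 0 were higher and 0 lower at an unadjusted p under 0.05, against 2.63% and 2.67% of named genes. The rod differences ranged from -0.18 to 0.03. In the exposed retina 12 of the 22 were lower in the inferior region at that limit, against 4.25% of all probe sets. Medians were -0.01 over 14 bipolar, 0.08 over 15 amacrine, 0.12 over 14 ganglion and 0.03 over 15 Muller cell genes, and without control inferior replicate 2 they were 0.05, 0.13, 0.19 and 0.06. *Slc17a6*, the vesicular glutamate transporter of ganglion cells, differed by 0.36 (95% interval 0.07 to 0.65), or 0.55 without that array, and *Gad2*, the GABA synthesis enzyme of amacrine cells, by 0.33 (95% interval 0.00 to 0.65), or 0.49 without it. The glial stress list had a median of -0.01 over 20 genes in the control and of 0.67 in the exposed retina. Of 22 genes of microglia and macrophages 2 were higher in the inferior control retina at an unadjusted p under 0.05 and 0 lower. Named genes met that limit at 2.63% and 2.67%. The 2 were *Ly86*, at 0.43 (95% interval 0.19 to 0.67), and *Csf1r*, at 0.21 (95% interval 0.02 to 0.40). They differed by 1.30 and 0.97 in the exposed retina.

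Receptor genes of the nose made up 11 of the 59 named genes past both limits, against 1192 of all 19938 named genes. Among the 11, 5 had a positive and 6 a negative difference. Of 1192 olfactory and vomeronasal receptor genes, whose median of the mean log2 value was 3.99, 35 (2.94%) lay higher and 92 (7.72%) lower at an unadjusted p under 0.05, against 2.63% and 2.67% of all named genes, with a median difference of -0.07 against 0.01 over all named genes. Without control inferior replicate 2 the receptor median was -0.09, against 0.01 over all named genes. Of the 59 genes, 24 (40.7%) had a mean log2 value under 6, against 30.3% of all named genes.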

How the data were processed

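Per the labels and the methods, RNA of retinas divided into superior and inferior parts was hybridised to 8 arrays, 2 for each of 4 groups. The authors made the log2 values in Partek Genomics Suite, by RMA background correction and then median polish of the probes of each set, and deposited 1 table, used as it stands; no version is stated for either tool. Of 28853 probe sets, 21789 have 1 gene symbol in the platform annotation, 1621 several and 5443 none listed; genes were named only from the first kind, and where probe sets shared a symbol the brightest was taken, giving 19938 genes. Of 557 listed genes 521 were matched.

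A mean per group was fitted over all 8 arrays (limma 3.58.1, R 4.3.3; 4 residual and 4.47 prior degrees of freedom), and p-values were Benjamini-Hochberg adjusted over the whole table at a threshold of 0.05. Unadjusted p-values are from the same fit. The script was tested on simulated data. The text names part of a set fixed by rule: the 15 largest differences each way among genes with a mean log2 value of at least 6, no overlap and an unadjusted p under 0.05, the 10 smallest p, all patterning and cone genes, the 4 leading members of other lists, and the genes that the study listed for control retina, a list drawn from these same samples, so it is not independent. *Cyp2f2*, *Tac1*, *Tacr3*, *Sparc*, *Nid2*, the receptor, deiodinase and *Cyp26* genes and the neighbours of *Mir20a* were named after their values were seen. Members and lists were chosen with earlier results of these data known. The number of arrays limits the precision.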

Additional observations from a re-analysis of the deposited data

Results flagged for a closer look

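*Edn2* had a region difference that was not the same in control and exposed retina by the test of the difference itself: -0.56 in the control and 1.56 in the exposed retina, a difference of differences of -2.11 (log2, limma adjusted p = 0.00186). Both control inferior arrays, at 6.91 and 6.95, were below both control superior arrays, at 7.55 and 7.43, and leaving out control inferior replicate 2 left the control difference at -0.58.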

How the results depend on the processing

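The count at an adjusted p under 0.05 in the control retina, 0 over all arrays, was 1 with arrays centred on their medians and 1 over 1-symbol probe sets only, *Tbx5* in both (adjusted p = 0.03978 and 0.03175). Leaving out single arrays gave 0 to 53, the 53 without control inferior replicate 1, where the array with high lens transcripts is alone in its group and assumed to vary like the others, and 2 when control superior replicate 1 was left out; *Tbx5* was one of the 53 (adjusted p = 0.01936). The replicate block gave 0. Whether the replicate numbers pair the samples is not settled. Deviations of same-numbered samples correlated at 0.072 between the control groups and at -0.021 to 0.144 over all 6 pairs of groups, and the lens median was higher on replicate 2 than on replicate 1 in all 4 groups. By the methods the replicates were run independently, and the sources do not say whether a number marks such a run.

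The count at an unadjusted p under 0.05 and a fold over 1.5, 93 over all arrays, was 107 with the replicate block. It was 47 with a mean log2 value of at least 6, 162 with the lens median as a covariate, 38 by the post hoc contrast without moderation and 20 by the methods' t-test. Leaving out single arrays gave 88 to 282, the highest without control inferior replicate 2; it was 244 when control inferior replicate 1 and 183 when control superior replicate 2 was left out. The count for the difference of differences, 1, was 2 with a mean log2 value of at least 6, 3 with a variance trend, and 1 to 30 without single arrays, with 30 without control inferior replicate 1. The causes were not tested.

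*Trdn*, at -0.45 by its brightest probe set, was at 0.066 by the mean of its probe sets, which disagree. Over the other named genes and lists, 10281 values were classed as unchanged, 31 passed the threshold for adjusted p and 160 were classed as shifted. Most of the values that passed came from the fit without control inferior replicate 1, where the array with high lens transcripts is alone in its group. The unchanged class includes changes of sign in small differences. *Arntl*, at 0.0014 over all arrays, kept its sign in 14 of 19 alternatives and ranged from -0.0357 to 0.0385. These classes are therefore not a count of all changes in sign or size.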
